A study of Mus musculus with 6 samples.

Results

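The oxidative phosphorylation subunit genes described here encode nuclear subunits of the 4 respiratory chain complexes and of the ATP synthase. The rule that chose them is membership in these complexes, given as a list of 49 gene identifiers paired with symbols. Of these, 45 had a value on the arrays, among 23770 measured gene rows in all: 21 genes of complex I, 4 of complex II, 5 of complex III, 8 of complex IV (with Ndufa4 placed there) and 7 of complex V, the ATP synthase. Ndufs3, Uqcrb, Cox5b and Cox7b were not analysed here.

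The study measured RNA on 6 arrays from mouse MLL-AF9 acute myeloid leukaemia cells of the C57BL/6 strain, enriched for leukaemia stem cells. MLL-AF9 is a fusion oncogene that drives leukaemia of the myeloid lineage. Both groups carry it: 3 arrays came from control cells and 3 from cells in which Kdm1a, the gene of a histone H3 lysine 4 demethylase, had been knocked down. The labels' protocol describes frozen leukaemia cells that were thawed, infected with virus and kept in culture overnight. The sources used here do not give the hairpin, the control vector, the time from infection to RNA or the age of the animals. The design text counts 3 samples from 2 animals and ties no sample to an animal, so some samples may share one, and every p-value here reflects only how far these particular samples differ.

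In oxidative phosphorylation, electrons from NADH enter the chain at complex I (NADH dehydrogenase) and electrons from succinate at complex II (succinate dehydrogenase, also an enzyme of the tricarboxylic acid cycle). Complex III (cytochrome bc1) passes them to cytochrome c and complex IV (cytochrome c oxidase) hands them to oxygen, and the proton gradient built on the way drives the ATP synthase. Most subunits are encoded in the nucleus and a few core subunits in mitochondrial DNA. In human acute myeloid leukaemia, stem cells are known for a reliance on this pathway for their energy.

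Promoters of nuclear respiratory genes are known for binding sites of NRF1, of the ETS factor GABP, of YY1 and of the oestrogen-related receptors. RefSeq windows of 300 bases (GRCm38.p6, from 250 bases before to 50 bases after the start) were at hand for 34 of the 45 genes, and were searched on both strands for 1 exact string per factor. The YY1 string AAGATGGCG stood in 4 of the 34 windows (11.8%, against 1.64% of 27025 genes), and all 4 belonged to complex I. These 4 sites are shown because the string recurs at nearly the same distance from the start, its first base 23 to 36 bases after it. The capitals mark the string, and all 4 windows lie on the minus strand, at chr13:114388045-114388074, chr13:73328433-73328462, chr3:51408914-51408943 and chr6:126849096-126849125 in the order given.
Ndufs4: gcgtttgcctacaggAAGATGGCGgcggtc
Ndufs6: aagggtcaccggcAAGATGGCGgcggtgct
Ndufc1: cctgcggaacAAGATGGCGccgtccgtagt
Ndufa9: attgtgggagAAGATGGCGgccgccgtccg

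The NRF1 string GCGCATGCG, or its complement CGCATGCGC, stood in 3 of the 34 windows (8.82%, against 1.95% of all genes), each in a different complex. Where the string overlaps its own complement the capitals cover both. The sites lie at chr2:36049328-36049357 (minus strand), chr9:108936668-108936697 (plus strand) and chr5:115349101-115349130 (minus strand).
Ndufa8: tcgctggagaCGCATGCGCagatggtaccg
Uqcrc1: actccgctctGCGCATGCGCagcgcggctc
Cox6a1: caggaacgggGCGCATGCGCgctctcgctc

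The ETS string CCGGAAG was found in 7 windows (20.6%, against 9.93% of all genes), those of Ndufb6, Ndufs8, Sdhb, Sdhd, Cox6a1, Cox6b1 and Cox8a. The string of the oestrogen-related receptors, TCAAGGTCA, was found in 1 window (2.94%, against 0.466%). In all, 13 of the 34 genes held at least 1 of the 4 strings. The median GC content of the 34 windows was 57.8%, against 52.7% over all genes, and its part in these shares was not tested. The median log2 difference between knockdown and control was -0.29 in the 4 genes with the YY1 string and -0.15 in those without it, and -0.15 and -0.16 with and without the NRF1 string. It was also -0.15 and -0.16 with and without the ETS string. All 4 genes with the YY1 string are of complex I, whose 21 genes had a median of -0.21. The YY1 string was not compared within that complex. A match describes the letters and not a bound site.

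Kdm1a itself was measured by 23 probe sets. The median of their log2 values was 8.612, 8.938 and 8.737 in the 3 control arrays and 6.298, 6.15 and 6.153 in the 3 knockdown arrays. All knockdown arrays lay far below all control arrays, a log2 difference of -2.56 (SE 0.18) that leaves 16.9% of the control level (limma adjusted p = 0.00363 over 18916 genes). No other gene passed that test. The 6 arrays had median log2 values of 5.125 to 5.259, and 12 of 13 myeloid leukaemia markers were measured, all above the median level of the genes. Of the markers of other cell types, 1 of 8 lymphoid genes (Cd79b), 1 of 6 erythroid and megakaryocyte genes (Tfrc) and 2 of 6 stromal and endothelial genes (Pecam1 and Col1a1) lay above it. The median log2 level of the lymphoid list was 3.596 to 4.078 in control and 3.92 to 4.39 in knockdown arrays. That of the erythroid and megakaryocyte list was 4.664 to 4.768 and 4.547 to 4.781, and that of the stromal list 4.833 to 5.428 and 5.231 to 5.46. In such mixed RNA, fewer cells of a type and less RNA per cell cannot be told apart.

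The subunit genes were expressed at high levels, 44 of the 45 lying in the highest 25% of rows by mean level. These 5943 rows, the highly expressed rows, serve as a background at a like level. None of the 45 passed limma's test at an adjusted p of 0.05, in either direction, and the smallest adjusted p was 0.904. Over all rows the test called 0.00421% as lower and 0% as higher, and within the highly expressed rows 0.0168% and 0%. At an unadjusted p under 0.05, 1 gene was lower (2.22%) and 0 were higher, against a background of 3.53% and 1.75% of all rows and 6.18% and 0.454% of the highly expressed rows. The knockdown values all lay below the control values in 3 genes (6.67%), Ndufv2, Uqcrc2 and Cox6c, against 6.07% of all rows and 11.4% of the highly expressed rows. They all lay above them in 0 genes, against 4.5% and 1.09%. These shares are near or under the background.

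The differences were small and mostly of 1 sign. The log2 difference, knockdown minus control, was below 0 in 42 of the 45 genes (93.3%), against 54% of all rows and 77.5% of the highly expressed rows, but in only 26 of the 45 once the deposited values were quantile normalized. The median difference was -0.15, or 89.9% of the control level, against -0.12 (91.8%) in the highly expressed rows and -0.019 over all rows. After quantile normalization the median of the 45 was -0.033 and that of the highly expressed rows 0.0064. The median of the 45 was also smaller without knockdown 1 (-0.07) and without control 3 (-0.092). Single differences ran from -0.68 (Ndufb3) to 0.057 (Atp5f1), and the plot of differences by gene shows them with their intervals. The 95% interval included 0 in 44 genes, excluded a 2-fold fall in 43 and excluded a 2-fold rise in all 45.

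**Figure D1:**
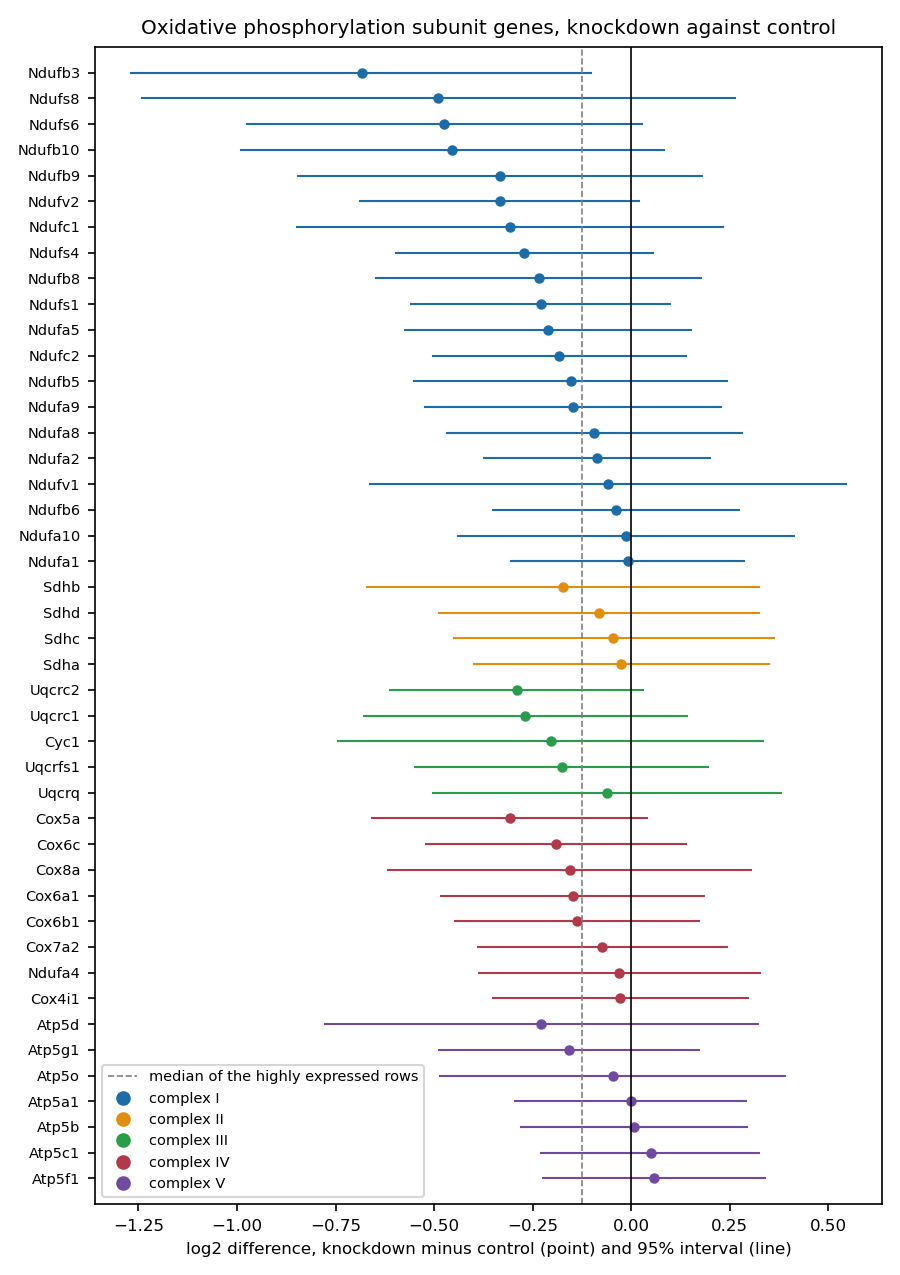
Log2 difference between knockdown and control (horizontal axis) for 44 of the 45 subunit genes, coloured by complex, with lines for the 95% interval of limma's fit, a solid line at 0 and a dashed line at the median of the highly expressed rows. Over all 45 genes, 42 lie below 0 (26 after quantile normalization), and 1 interval, that of Ndufb3, does not reach 0.

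The spread between arrays of a group was as large as most of these differences. The SD of a gene's log2 value had a median of 0.205 over the control arrays (range 0.0193 to 0.569) and 0.174 over the knockdown arrays (0.0515 to 0.415). The difference exceeded both SDs in 12 genes (26.7%, against 22.9% of all rows and 27.9% of the highly expressed rows).

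The arrays numbered 1 held the lowest value of their group in most of the genes. Control 1 was the lowest control array in 40 of the 45 genes (88.9%, against 66.7% of the highly expressed rows and 43.4% of all rows), and knockdown 1 was the lowest knockdown array in 29 (64.4%, against 52.1% and 42.8%). Both held at once in 28 genes (62.2%, against 45.7% of the highly expressed rows and 26.1% of all rows). Knockdown 2 was lowest of its group in 15 genes (33.3%, against 41.3% and 30.6%) and knockdown 3 in 1 (2.2%, against 6.6% and 26.7%). The median deviation of the 45 genes from their own means was -0.13, 0.12 and 0.21 on the log2 scale in control arrays 1, 2 and 3, and -0.22, -0.10 and 0.080 in knockdown arrays 1, 2 and 3. The groups overlap, since control 1 lies below knockdown 2 and knockdown 3. Their means were 0.064 ± 0.18 and -0.080 ± 0.15 (SD, n = 3 each). In the highly expressed rows the same medians were -0.069, 0.11 and 0.16 in control and -0.16, -0.12 and 0.091 in knockdown, the same order of arrays within control and within knockdown.

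Of the 12 myeloid markers, 5 were lowest in the array numbered 1 of both groups (Kit, Cd34, Meis1, Mpo and Spi1), 4 were highest there (Csf1r, Ctsg, Itgam and Ptprc) and 3 were neither. The log2 level of Kit, the receptor of stem cell factor, was 5.355, 7.572 and 7.441 in control and 5.138, 7.219 and 7.855 in knockdown arrays. For Cd34, a progenitor surface protein, it was 7.185, 8.214 and 7.861 in control and 6.673, 8.61 and 8.656 in knockdown. For Itgam, an integrin of mature myeloid cells, it was 8.448, 7.714 and 7.369 in control and 7.813, 7.138 and 7.323 in knockdown, with the array numbered 1 the highest of each group. The median level over all 12 myeloid markers was 8.148 to 8.353 in control and 7.987 to 8.401 in knockdown arrays, and the part of these markers in the subunit genes' values was not tested. Without both arrays numbered 1, the difference was below 0 in 42 genes (52.5% of all rows and 75.6% of the highly expressed rows), with a median of -0.20 (-0.15 in the highly expressed rows). Then 24 of the 45 genes did not overlap between the groups of 2 arrays on the lower side. That compares with 23.6% of all rows and 43.3% of the highly expressed rows. Limma called 0% of all rows in either direction without these arrays.

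**Figure D2:**
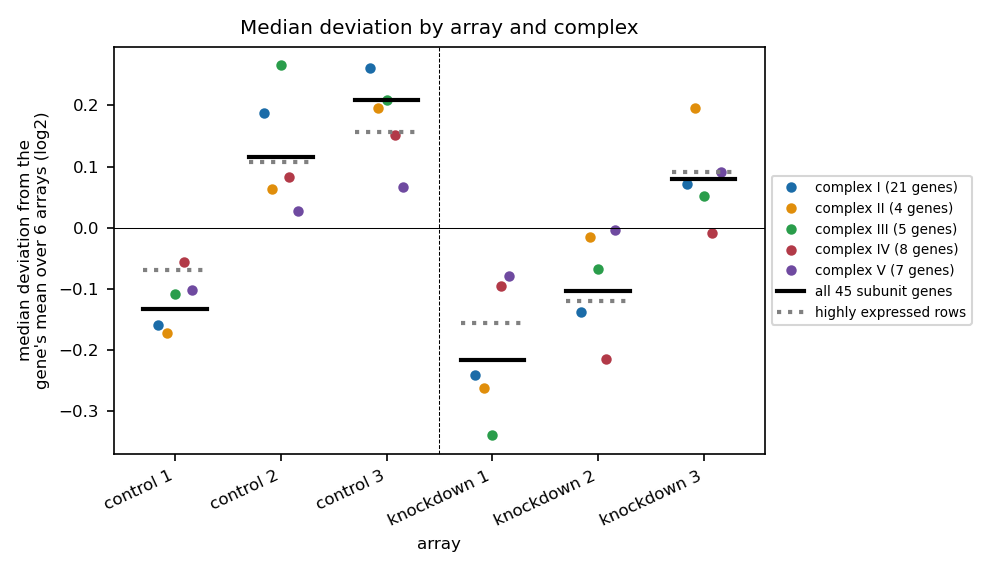
Median deviation of the genes of each complex (points), of all 45 subunit genes (black bars) and of the highly expressed rows (dotted grey bars) from each gene's mean over the 6 arrays, on the log2 scale, for the 3 control arrays (left of the dashed line) and the 3 knockdown arrays. The arrays numbered 1 are the lowest of their group in the median of all 45 genes, at -0.13 and -0.22.

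In complex I, all 21 genes had a log2 difference below 0 (14 of 21 after quantile normalization), with a median of -0.21, or 86.4% of control. That median was -0.092 after quantile normalization and -0.12 without control 3. Its 5 core genes, of the kind conserved down to bacteria that together bind the flavin, the iron-sulfur clusters and ubiquinone, had a median of -0.23, and its 16 accessory genes a median of -0.20. In none of the 21 did the difference pass the test.

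Ndufb3 (ENSMUSG00000026032), an accessory subunit of the membrane arm, showed the lowest difference of the 45. Its log2 values were 6.788, 7.193 and 7.687 in control and 6.544, 6.28 and 6.79 in knockdown arrays. The groups touch, since control 1 lies just below knockdown 3. The log2 difference was -0.68 (SE 0.25, 95% interval -1.27 to -0.10), or 62.2% of control, with a limma adjusted p of 0.904. It is the 1 gene at an unadjusted p under 0.05, and it was measured by 1 probe set.

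Other accessory subunits of the membrane arm had smaller differences. For Ndufb10 the log2 values were 9.07, 9.657 and 9.747 in control and 8.725, 9.091 and 9.295 in knockdown arrays. Control 1 lies below knockdown 2 and 3, and the difference was -0.45 (SE 0.23, limma adjusted p = 0.926). For Ndufb9 they were 9.389, 9.9 and 9.864 in control and 9.231, 9.156 and 9.767 in knockdown arrays. Knockdown 3 lies within the control range, and the difference was -0.33 (SE 0.22, limma adjusted p = 0.931). All 6 probe sets of Ndufb10 and all 7 of Ndufb9 had a difference below 0.

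Accessory subunits of the matrix arm followed. Ndufs6, a zinc-binding subunit, had log2 values of 8.931, 9.599 and 9.594 in control and 8.835, 8.759 and 9.107 in knockdown arrays. Control 1 lies below knockdown 3, and the difference was -0.47 (SE 0.21), or 72% of control (limma adjusted p = 0.926). Ndufs4, whose loss causes a mitochondrial encephalopathy in mice and humans, had values of 10.28, 10.41 and 10.48 in control and 10.12, 9.957 and 10.29 in knockdown arrays. Control 1 lies just below knockdown 3, and the difference was -0.27 (SE 0.14, limma adjusted p = 0.926), with all 9 probe sets below 0. Quantile normalization left a difference of -0.335 for Ndufs6 and -0.155 for Ndufs4. Both promoters hold the YY1 string printed above.

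Among the core subunits, Ndufv2 (ENSMUSG00000024099), an iron-sulfur protein next to the flavin site, had log2 values of 9.237, 9.582 and 9.676 in control and 9.106, 9.186 and 9.202 in knockdown arrays. All 3 knockdown arrays lay below all 3 control arrays. The difference was -0.33 (SE 0.15), or 79.4% of control (limma adjusted p = 0.926), and 9 of its 11 probe sets were below 0. That difference was -0.22 after quantile normalization, and the groups overlapped in the probe set median. Ndufs1, the largest core subunit, had values of 9.367, 9.429 and 9.577 in control and 9.154, 9.112 and 9.416 in knockdown arrays. Knockdown 3 lies within the control range, and the difference was -0.23 (SE 0.14, limma adjusted p = 0.929), with 17 of 20 probe sets below 0. That difference was -0.092 after quantile normalization. Ndufs8, another iron-sulfur subunit, had a wider spread, with values of 8.367, 9.383 and 9.317 in control and 8.079, 8.623 and 8.894 in knockdown arrays, and a difference of -0.49 (SE 0.32).

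At the other end, Ndufa1, an accessory subunit of the membrane arm encoded on the X chromosome, had log2 values of 11.37, 11.53 and 11.44 in control and 11.46, 11.32 and 11.54 in knockdown arrays. The groups lie on top of each other. The difference was -0.0097 (SE 0.13), turned to 0.058 after quantile normalization, and had a limma adjusted p of 0.994. The other genes of complex I lay between. Ndufc1 stood at -0.31, Ndufb8 at -0.24, Ndufa5 at -0.21 and Ndufc2 at -0.18. Ndufb5 stood at -0.15, Ndufa9 at -0.15 and Ndufa8 at -0.094. The smallest were Ndufa2 at -0.087, Ndufv1 (the flavin subunit) at -0.058, Ndufb6 at -0.039 and Ndufa10 at -0.013.

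Complex II showed smaller values. Its 4 genes had a median log2 difference of -0.063, or 95.7% of control, all below 0 but only 1 of 4 after quantile normalization, where the median was 0.074. Sdhb, the iron-sulfur subunit, had log2 values of 8.843, 9.521 and 9.387 in control and 8.836, 9.129 and 9.267 in knockdown arrays. The arrays numbered 1 are nearly level at the bottom of both groups, and the difference was -0.17 (SE 0.21, limma adjusted p = 0.944). It was -0.38 without control 1, -0.038 without control 2 and -0.033 after quantile normalization. Sdha, the flavoprotein that oxidises succinate, had values of 9.422, 9.626 and 9.744 in control and 9.345, 9.607 and 9.764 in knockdown arrays. The groups cover the same range, and the difference was -0.025 (SE 0.16, limma adjusted p = 0.991) and 0.10 after quantile normalization. The membrane anchors Sdhd and Sdhc stood at -0.082 and -0.045.

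Complex III had a median close to that of complex I, and the order of the 2 changed between alternatives. All 5 genes had a log2 difference below 0 (4 of 5 after quantile normalization), with a median of -0.21, or 86.8% of control. Uqcrc2 (ENSMUSG00000030884), a core protein on the matrix side, had log2 values of 10.12, 10.42 and 10.36 in control and 9.935, 9.972 and 10.11 in knockdown arrays. All knockdown arrays lay below all control arrays, with knockdown 3 just under control 1. The difference was -0.29 (SE 0.14), or 81.7% of control (limma adjusted p = 0.926), and all 15 probe sets were below 0. That difference was -0.17 after quantile normalization, and the groups overlapped in the probe set median. Uqcrc1, its partner core protein, had values of 8.603, 9.014 and 8.92 in control and 8.325, 8.644 and 8.763 in knockdown arrays. Control 1 lies below knockdown 2 and 3, and the difference was -0.27 (SE 0.17, limma adjusted p = 0.929), with 15 of 16 probe sets below 0. That difference was -0.12 after quantile normalization.

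Cyc1, which encodes cytochrome c1, stood at a log2 difference of -0.21 and Uqcrfs1, the Rieske iron-sulfur protein, at -0.18. Uqcrq, a small subunit, had log2 values of 8.799, 9.137 and 9.225 in control and 8.683, 9.083 and 9.207 in knockdown arrays. The groups overlap over nearly their whole range. The difference was -0.063 (SE 0.19, limma adjusted p = 0.981) and 0.068 after quantile normalization. The median of complex III was -0.38 without control 1 and -0.32 without knockdown 3, but -0.092 without control 3 and -0.060 after quantile normalization.

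In complex IV all 8 genes had a log2 difference below 0 (5 of 8 after quantile normalization), with a median of -0.14, or 90.6% of control. That median was -0.071 without knockdown 2, -0.088 without control 3 and -0.068 after quantile normalization. Cox5a (ENSMUSG00000000088), a nuclear subunit on the matrix side, had log2 values of 9.514, 9.819 and 9.946 in control and 9.431, 9.405 and 9.516 in knockdown arrays. The groups touch, since control 1 and knockdown 3 are all but equal. The difference was -0.31 (SE 0.15), or 80.7% of control (limma adjusted p = 0.926), with all 5 probe sets below 0. That difference was -0.18 after quantile normalization.

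Cox4i1, the largest nuclear subunit of the complex, had log2 values of 11.52, 11.75 and 11.73 in control and 11.5, 11.78 and 11.64 in knockdown arrays. The groups cover the same range, and the difference was -0.028 (SE 0.14, limma adjusted p = 0.986) and 0.041 after quantile normalization. Cox6c, which was measured by 1 probe set, had values of 11.16, 11.15 and 11.3 in control and 11.15, 10.8 and 11.09 in knockdown arrays. Its knockdown arrays lay below its control arrays, though knockdown 1 and control 2 differ only past the second decimal, and the difference was -0.19. The others were Cox8a at -0.16, Cox6a1 at -0.15, Cox6b1 at -0.14, Cox7a2 at -0.074 and Ndufa4 at -0.031.

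The ATP synthase genes had the median nearest to 0, though not after quantile normalization, where it was 0.096. Of the 7 genes, 4 had a log2 difference below 0 (2 of 7 after quantile normalization, 5 after median centring), the range was -0.23 to 0.057, and the median was -0.0018, or 99.9% of control. Atp5f1, a subunit of the peripheral stalk, had the highest difference of the 45, with log2 values of 8.537, 8.666 and 8.628 in control and 8.587, 8.67 and 8.745 in knockdown arrays. The groups overlap, and the difference was 0.057 (SE 0.12, limma adjusted p = 0.97). Atp5a1, the alpha subunit of the catalytic head, had values of 10.01, 10.15 and 10.22 in control and 10.05, 10.12 and 10.2 in knockdown arrays. All knockdown values lie within the control range, and the difference was -0.0018 (SE 0.13, limma adjusted p = 0.999) and 0.11 after quantile normalization.

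Atp5g1, which encodes a copy of the c subunit of the rotor ring, was the 1 gene of the 45 outside the highly expressed rows. Its log2 values were 5.614, 5.916 and 5.688 in control and 5.545, 5.72 and 5.48 in knockdown arrays. Knockdown 2 lies within the control range, and the difference was -0.16 (SE 0.14, limma adjusted p = 0.939). Atp5d, of the central stalk, stood at -0.23 and Atp5o, of the peripheral stalk, at -0.048. Atp5b, the catalytic beta subunit, stood at 0.007 and Atp5c1, of the central stalk, at 0.049.

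The distance between complex I and the ATP synthase was also looked at array by array. The median deviation of complex I minus that of complex V was -0.057, 0.16 and 0.20 on the log2 scale in control and -0.16, -0.13 and -0.020 in knockdown arrays. The groups overlap, as control 1 lies below knockdown 3. The heat map of deviations shows single genes, among which the lowest array varied. Control 1 was the lowest control array in 40 of the 45 genes. Knockdown 1 was the lowest knockdown array in 29 and knockdown 2 in 15. In complex IV the lowest knockdown median was that of knockdown 2, at -0.21 against -0.096 in knockdown 1.

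**Figure D3:**
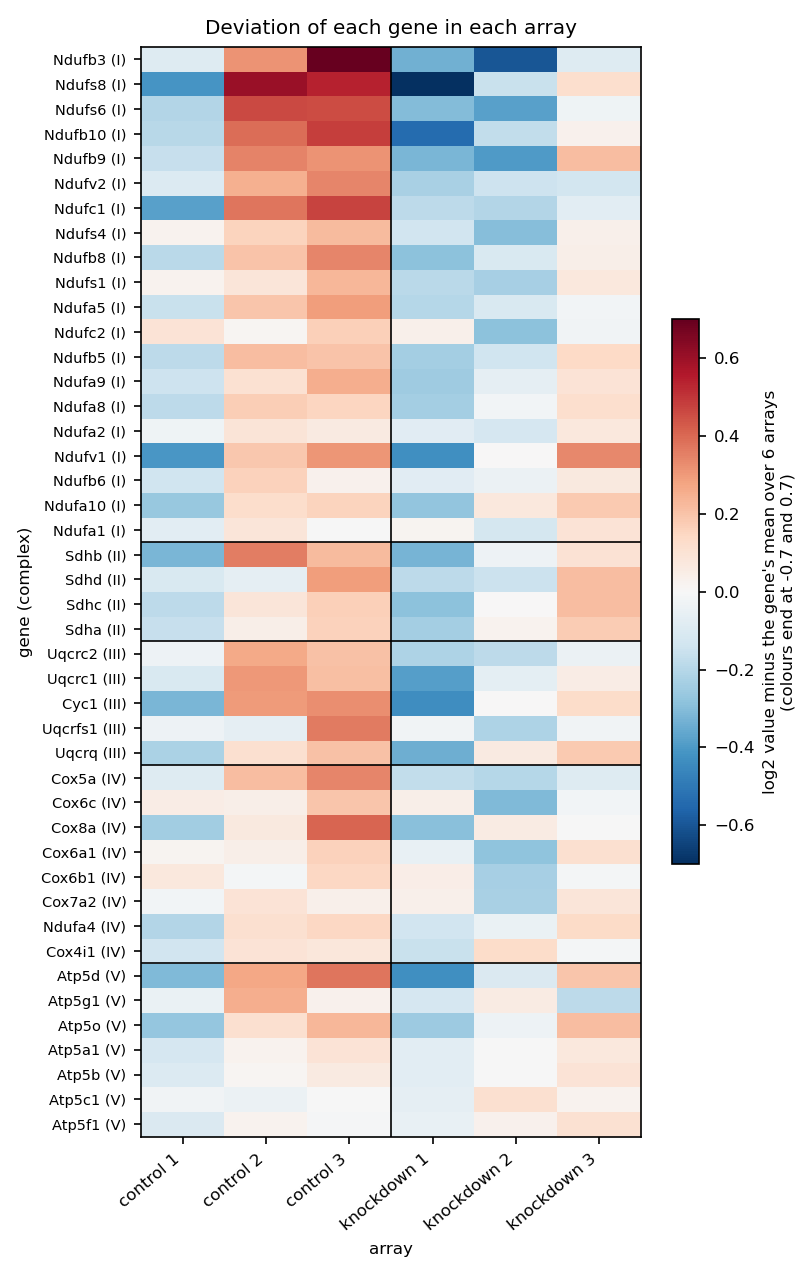
Deviation of the log2 value of 44 of the 45 genes from each gene's mean over the 6 arrays, with genes in rows (complex in brackets), arrays in columns and the groups split by the vertical line; colours end at the limits given on the scale. Over all 45 genes, control 1 is the lowest control array in 40 and knockdown 1 the lowest knockdown array in 29.

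The deposited probe set values gave a second summary of the same arrays. Under the 44 genes with probe sets there were 314, of which 233 (74.2%) had a log2 difference below 0. That compares with 53% of all 242247 probe sets with 1 gene symbol. Of the 314, 269 were among the highly expressed probe sets (the highest 25%). In these, 210 (78.1%) lay below 0, against 60.3% of all highly expressed probe sets. Taking all 314, the share was 80.6% in complex I (112 of 139), 57.9% in complex II (22 of 38) and 84.9% in complex III (45 of 53). It was 84% in complex IV (21 of 25) and 55.9% in complex V (33 of 59). Probe sets of a gene share the same RNA and are not replicates. Several of these genes have processed pseudogenes in the genome, and whether probes match those too was not examined here.

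With each gene's value taken as the median of its probe sets, 37 of 44 genes (84.1%) lay below 0, or 30 of 44 after quantile normalization, against 55.7% of all 18916 genes and 76.8% of the highly expressed genes (again the highest 25%). The median log2 difference was -0.16. By complex it was -0.19, -0.029, -0.33, -0.14 and -0.13 from I to V, so the ATP synthase did not lie nearest to 0 in this summary. At an unadjusted p under 0.05, 5 of the 44 genes were lower (11.4%) and 0 higher. Over all genes the shares were 3.29% and 1.77%, and in the highly expressed genes 5.39% were lower. The 5 lower genes were Ndufb8 (-0.62), Ndufb3 (-0.68), Ndufs6 (-0.58), Uqcrfs1 (-0.66) and Cox5a (-0.48). Limma's adjusted p was at least 0.959 in each (called as lower were 0.00529% of all genes and 0.0211% of the highly expressed genes). The groups did not overlap in 5 genes on the lower side (11.4%) and in 1, Atp5c1, on the higher side (2.27%). All genes had 6.04% and 4%, and the highly expressed genes 11% and 1.37%. The 5 on the lower side were Ndufa9, Ndufb8, Ndufs6, Cox5a and Cox6c. Of the genes without overlap by the gene value, only Cox6c was among them, and it has 1 probe set. Ndufv2 and Uqcrc2 overlapped in this summary.

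The 2 summaries correlated over the 6 arrays with a median r of 0.911 across the 44 genes, and 38 had an r of at least 0.7. They differed in sign for 6 genes. Cox6a1 disagreed most, with an r of -0.54 and a log2 difference of -0.15 in the gene value and 0.25 in the probe set median. Uqcrq stood at 0.14 and Atp5f1 at -0.15 in the probe set median, each with the sign turned against the gene value.

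**Figure D4:**
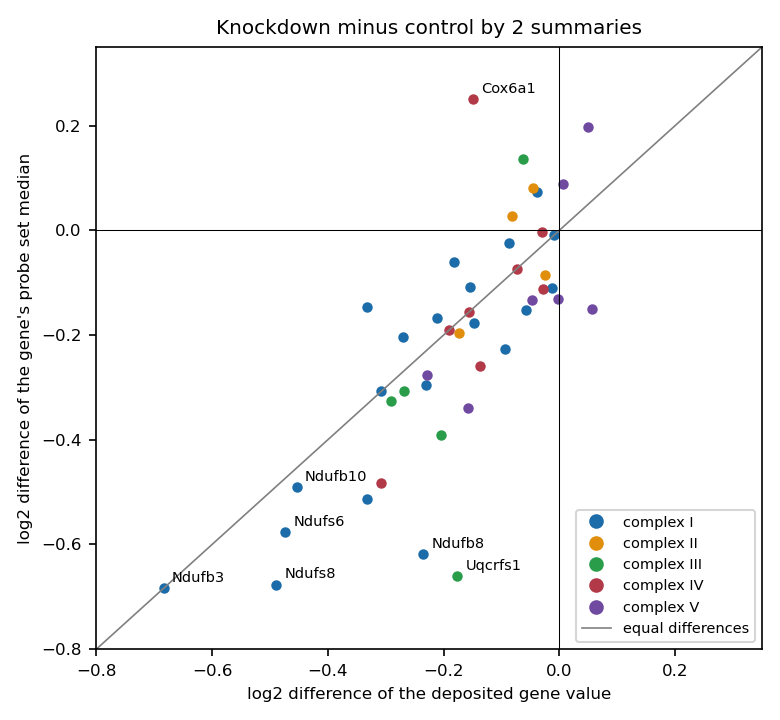
Log2 difference between knockdown and control by the deposited gene value (horizontal axis) and by the median of the gene's probe sets (vertical axis) for 44 subunit genes, coloured by complex, with a line of equal differences. Most points lie in the lower left part, with 37 genes below 0 on the vertical axis (30 after quantile normalization), and Cox6a1 stands off the line at -0.15 and 0.25.

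Other genes of the pathway were taken from lists and read by the median of their probe sets. None passed limma's test in any list, and the smallest adjusted p was 0.959. A list of 34 further nuclear subunit genes also held Atpif1, an inhibitor of the ATP synthase. Of the list, 28 were matched and 21 lay below 0 (19 after quantile normalization), with a median log2 difference of -0.21. Above 0 were Ndufa12, Cox7a2l, Atp5g3 and the isoform genes Cox4i2, Cox6a2, Cox6b2 and Cox8b. At an unadjusted p under 0.05 there were 0 genes in either direction. The groups did not overlap in 2, Atp5k (-0.44) and Atp5j (-0.31), both lower (6.04% of all genes) and both of the ATP synthase. The list's median was -0.081 after quantile normalization. Of 13 tricarboxylic acid cycle genes, 11 were matched and 9 lay below 0 (7 after quantile normalization), with a median of -0.15 (-0.0028 after quantile normalization) and 0 at that threshold. The median over all 18916 genes was -0.036 and over the highly expressed genes -0.14. The 13 mitochondrially encoded subunits had no match and were not analysed here.

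Assembly factors build the complexes without being part of them. Of 38, 37 were matched and 32 lay below 0 (21 after quantile normalization), with a median log2 difference of -0.20 (-0.042 after quantile normalization). The groups did not overlap in 3 genes on the lower side and in 2 on the higher side, Cox11 (0.25) and Coa5 (0.29), against 6.04% and 4% of all genes. An unadjusted p under 0.05 was reached by 2 genes, both lower (3.29% of all genes) and both complex I assembly factors. Ndufaf3 had log2 values of 7.455, 8.004 and 7.944 in control and 7.33, 6.524 and 7.207 in knockdown arrays. All knockdown arrays lay below all control arrays, a difference of -0.78 (SE 0.26, limma adjusted p = 0.959). Nubpl, which delivers iron-sulfur clusters, had values of 8.156, 9.185 and 8.971 in control and 7.904, 7.702 and 8.519 in knockdown arrays. Knockdown 3 lies above control 1, and the difference was -0.73 (SE 0.31, limma adjusted p = 0.959).

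Among regulators of mitochondrial biogenesis, 13 of 14 were matched and 8 lay below 0 (4 after quantile normalization), with a median log2 difference of -0.028 that turned to 0.12 after quantile normalization. Gabpb1, the partner subunit of the ETS factor GABP, had log2 values of 6.914, 7.32 and 6.909 in control and 6.385, 6.129 and 6.475 in knockdown arrays. All knockdown arrays lay below all control arrays, with 13 of 15 probe sets below 0, and it was the 1 regulator at an unadjusted p under 0.05 (3.29% of all genes). The difference was -0.72 (SE 0.20, limma adjusted p = 0.959). Gabpa, the DNA-binding subunit, stood at -0.30, Tfam, which packages mitochondrial DNA, at -0.19, and Nrf1 at -0.011 (0.13 after quantile normalization). The coactivators Ppargc1a and Ppargc1b stood at -0.060 and 0.33.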

How the data were processed

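RNA from 3 control and 3 Kdm1a knockdown samples was measured on 6 arrays. Per the labels' protocols, RNA was amplified as cDNA and labelled with biotin. The deposited gene-level file gives every gene 1 log2 value on each array, made with RMA per the submitters' processing notes, which give no version; RMA corrects background, equalises arrays and summarises probes, and can compress differences. A second deposited table holds log2 values of 267824 probe sets. Of these, 242247 had 1 gene symbol in the platform annotation, 2077 several and 23500 none. For 32332 probe sets an older symbol was updated through RefSeq (Kdm1a is listed under an older symbol). The scale was read from the values (0.9309 to 12.9). The sources used here do not give the array's build or its mapping of probes to genes. Detection calls were not used here, and precision is limited by the small number of arrays. All columns of per-sample values were used.

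The groups were tested with limma 3.58.1 under R 4.3.3 (functions lmFit and eBayes, all 6 arrays, all 23770 rows, no covariate, two-sided, Benjamini-Hochberg over all rows, threshold 0.05). SE is limma's moderated standard error. An exact permutation test of 3 against 3 cannot go below p = 0.1. Probe set values were tested as the median per symbol. The fit was tested on simulated data. Values in every array are given, in each complex, for the gene with the smallest p in each direction and the one with the smallest absolute difference, and for the 10 genes with the smallest p; values for Cox6c, Ndufs8, Kit, Cd34, Itgam and the list genes shown in full were added after they were seen. The values of 1 gene of the list are not reported here, though it enters the counts and medians. The members and lists were chosen with earlier results of these data known. Replicate numbers are in the titles and were not used to pair samples. Alternatives were other scalings, filters, priors, array weights, a replicate block and leaving out arrays; leaving out both arrays numbered 1 was chosen after seeing the data.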

Additional observations from a re-analysis of the deposited data

How the results depend on the processing

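None of the subunit genes passed limma's test under any of the 16 alternatives, with their smallest adjusted p between 0.451 and 1. The replicate number as a block changed no call among the subunit genes. Over all rows the test called 0 with this block, against 1 in the full fit. With it 5 subunit genes were lower at an unadjusted p under 0.05 (6.37% of all rows), and their smallest adjusted p was 0.478. As a random block, 6 were (5.9% of all rows). For neither block is the share of the highly expressed rows given. Deviations of same-numbered arrays from their group means correlated over all rows with r = 0.543, 0.0806 and 0.251 for numbers 1, 2 and 3, and with number 2 under 0.1 they were not taken as pairs. Over the subunit genes r was 0.639, 0.41 and 0.525, each of the 6 arrays correlated best with its own number (3 of 6 over all rows), and the median deviation was lower in knockdown than in control for all 3 numbers.

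The count of genes with a log2 difference below 0 was 26 after quantile normalization, where 2 genes had knockdown values all above the control values (5.75% of all rows), and 31 to 43 when 1 array was left out. The median difference was -0.23 to -0.070 when 1 array was left out, -0.228 without knockdown 3 and -0.07 without knockdown 1 (the highly expressed rows stood at -0.202 and -0.0795). With 1 array left out, medians ran from -0.28 to -0.12 in complex I, -0.38 to -0.092 in III and -0.18 to -0.071 in IV, and changed sign in II (-0.19 to 0.038) and V (-0.060 to 0.046). In what follows, counts are out of the 45 genes (44 by probe set medians) and brackets hold the background share. At an unadjusted p under 0.05, lower genes numbered 2 with median centring (4.09% of all rows). They numbered 3 with an intensity trend and a robust prior (3.61%) and 7 with array weights (6.3%). By probe set medians they numbered 5 (3.29% of genes) and without both arrays numbered 1 they numbered 7 (5.61%). They were 0 to 8 when 1 array was left out (8 without control 1, 6.66%). The share of the highly expressed rows was 6.18% in the full fit and 5.39% by probe set medians. For the other alternatives that share is not given. Genes whose groups did not overlap on the lower side numbered 5 by probe set medians (6.04% of genes), 24 without both arrays numbered 1 (23.6%), and 3 to 22 when 1 array was left out. They were 22 of the 45 without control 1 (against 18.9% of all rows) and 12 of the 45 without knockdown 3 (against 15.1%). The share of the highly expressed rows is not given for single arrays left out. It was 11.4% in the full fit, against 6.07% of all rows. Without both arrays numbered 1 it was 43.3%, and by probe set medians 11% of the highly expressed genes. On the higher side, genes without overlap numbered 1 by probe set medians (4% of genes), 2 without both arrays numbered 1 (18.2%), and 0 to 2 when 1 array was left out (2 without knockdown 1, 11.5%). The causes were not tested.

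Of 288 values of the 18 genes named by the rule, 268 kept their sign and 20 turned it. After quantile normalization these were Ndufa1 (0.058), Sdha (0.10), Uqcrq (0.068), Cox4i1 (0.041) and Atp5a1 (0.11), by probe set medians Uqcrq (0.14) and Atp5f1 (-0.15), and without both arrays numbered 1 Sdha (0.00015). With 1 array left out, log2 differences ran from -0.060 to 0.051 for Ndufa1, -0.12 to 0.088 for Sdha, -0.19 to 0.091 for Uqcrq, -0.10 to 0.042 for Cox4i1 and -0.060 to 0.046 for Atp5a1. Others moved by over 1.5 times without a change of sign: Ndufb3 (-0.90 to -0.45), Ndufb10 (-0.67 to -0.30), Ndufb9 (-0.52 to -0.22), Sdhb (-0.38 to -0.038), Uqcrc1 (-0.39 to -0.14), Atp5g1 (-0.23 to -0.069) and Atp5f1 (0.018 to 0.098). Quantile normalization made the 10 differences of smallest p smaller without turning them. They became -0.58 for Ndufb3, -0.335 for Ndufs6, -0.33 for Ndufb10, -0.22 for Ndufv2 and -0.20 for Ndufb9. For Cox5a the value was -0.18, for Uqcrc2 -0.17, for Ndufs4 -0.155, for Uqcrc1 -0.12 and for Ndufs1 -0.092. With 3 arrays a group, the intervals of single genes are wider than most differences reported.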

Other observations

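Among all 18916 genes read by probe set medians, the second smallest p after Kdm1a belonged to Grsf1, an RNA-binding protein of mitochondrial RNA granules that acts on transcripts of mitochondrial DNA. It belongs to none of the lists and was chosen after its values were seen. Its log2 values were 8.701, 8.839 and 8.89 in control and 6.888, 7.345 and 7.327 in knockdown arrays. All knockdown arrays lay below all control arrays, a log2 difference of -1.62 (SE 0.20) or 32.5% of control, and -1.46 after quantile normalization. The difference did not pass limma's test (adjusted p = 0.171), and 12 of its 13 probe sets lay below 0.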
